A study of Mus musculus with 4 samples.

Results

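Complement is a cascade of plasma proteins that tags cells and debris for removal and drives inflammation. In its classical pathway the recognition molecule C1q, built of A, B and C chains, binds a target and, through attached proteases, cleaves C4 and C2, while in the alternative pathway factor B and factor D amplify the cleavage of C3, on which all pathways converge. C1q is made largely by macrophages, whereas C3, C4, factor B and C1 inhibitor are also made by stromal cells and are well-known products of fat tissue fibroblasts and preadipocytes.

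The genes described here are the C1q chain genes C1qa, C1qb and C1qc, the early components C2, C3, C4b and Cfb (factor B), the C1 inhibitor Serping1, and C3ar1, the receptor for the C3a fragment. They were taken as the probes named for these 9 genes by the array design or by the current RefSeq symbol of the probe's accession. All 9 had a probe, 11 probes in all of 55681 on the array, and 8 genes were bright enough to be tested among 24518 features.

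The RNA was that of adipocyte progenitor cells, which give rise to fat cells and were isolated by flow cytometry from subcutaneous fat and lysed at once, with 1 single-colour Agilent array per sample. Of the 4 samples, 2 came from Adamts1 transgenic mice and 2 from wild-type mice, and all mice were FVB males at 4 weeks of age with no treatment. Adamts1 is a secreted protease that cleaves matrix proteoglycans. The sources used here leave unstated which promoter drives the transgene, which surface markers served the sort and whether each sample is a separate animal, so p-values measure only the spread between these samples, which may be technical.

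A share of 57.0% and 56.0% of spots was well above background on the transgenic arrays, against 47.0% and 55.5% on the wild-type arrays, so wild-type array 1 measured the fewest dim genes. The progenitor markers Pdgfra, Ly6a and Cd34 were well above background on all 4 arrays. Adamts1 itself had normalised log2 signals of 6.77 and 6.82 on the transgenic arrays, against 6.66 and 6.73 on the wild-type arrays (difference 0.10 ± 0.09 SE, limma adjusted p = 0.587). Without knowledge of the transgene's sequence, this probe does not check the genotype labels. Signals are given throughout as the log2 of the processed signal relative to the array's 75th percentile, so that a value of 0 equals that percentile and a difference of 1 is a 2-fold change, and levels are not compared between genes.

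Probes of 6 of the 9 genes are shown as the array design holds them, 60 bases each in the sense of the messenger RNA, so that a reader can see which stretch of each gene was measured. For C1qc the leading 30 of 60 bases are given. For C3 and Serping1 the probe shown is not the brighter one that gave the values below.
C1qa: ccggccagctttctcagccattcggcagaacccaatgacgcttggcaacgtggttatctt
C1qb: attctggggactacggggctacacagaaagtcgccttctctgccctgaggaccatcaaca
C1qc: tctgggaaccacctaatggtattattcctg
C3: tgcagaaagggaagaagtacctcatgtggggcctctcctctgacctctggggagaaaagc
Cfb: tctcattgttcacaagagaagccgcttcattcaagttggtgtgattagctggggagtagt
Serping1: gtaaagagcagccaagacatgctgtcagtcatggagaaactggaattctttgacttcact
On the mm9 build, in which the files give probe positions, the C1q probes lie within 15.8 kb of chromosome 4, at chr4:136452409-136452468 for C1qa, chr4:136436578-136436637 for C1qb and chr4:136445766-136445825 for C1qc, all on the minus strand. The C1q chains are related proteins, but the longest run of bases shared by their probes was 6, and over all 55 pairs of the 11 probes it was 8. The C2, Cfb and C4b probes lie within 134 kb of chromosome 17, in the region of the major histocompatibility complex. The C3 probe shown lies at chr17:57343678-57343737, and a brighter C3 probe printed on 10 spots lies at chr17:57343416-57343475. The Cfb and Serping1 sequences shown map to chr17:34993502-34993858 and chr2:84605968-84607474, stretches of 357 and 1507 bases for 60 bases of probe. Exons were not annotated here.

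The comparison of transgenic with wild-type progenitor samples asks which complement genes differ in cells of mice that carry the transgene. The C1q chains were higher on the transgenic arrays, with C1qb at 3.52-fold and C1qc at 7.90-fold or more, both called at an adjusted p under 0.05. C1qa had a difference of similar size that was not called, and its wild-type arrays were far apart. The later components and the inhibitor had small differences in the other direction or none, and none of them was called. Without overlap between the groups, 3 of the 8 tested genes were higher and 4 lower on the transgenic arrays, against 24.3% higher and 28.9% lower, or 53.1% in all, over all features. By adjusted p, 2 of the 8 tested genes rose and 0 fell, against 0.983% called higher and 0.771% called lower over all features, or 1.75% in either direction. At an unadjusted p under 0.05 it was 3 higher and 4 lower of 8, against 9.15% and 9.86% of all features, or 19.0% in all. Without an intensity trend in the test 0 features were called, these genes included. The median log2 difference of the 8 genes was -0.11, against -0.02 over all features.

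**Figure D1:**
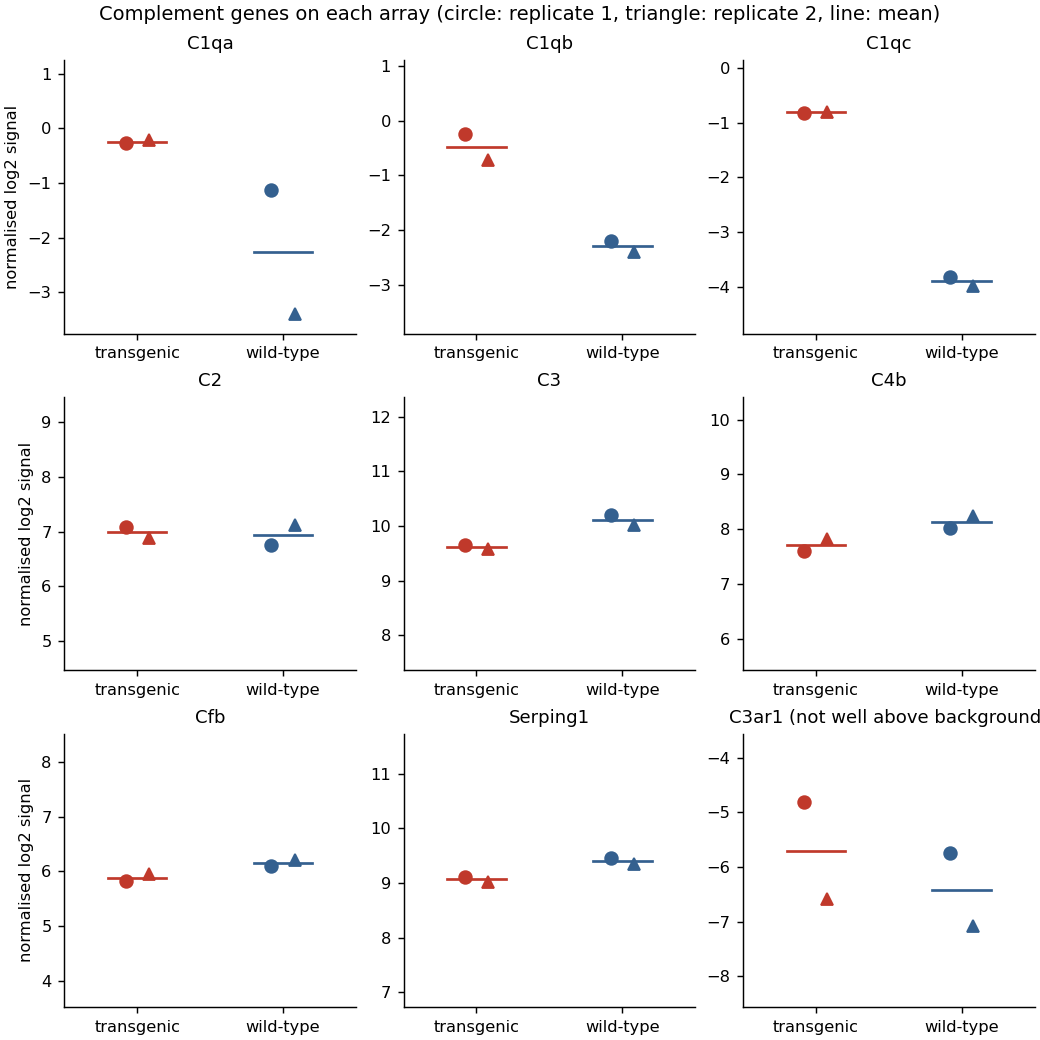
Normalised log2 signal (y axis, all panels spanning the same number of log2 units) of each of the 9 complement genes on the transgenic arrays (red, left) and the wild-type arrays (blue, right). Circles are replicate 1, triangles replicate 2 and lines the group means. The C1q chains sit higher on the transgenic arrays, C3, C4b, Cfb and Serping1 slightly lower, C2 overlaps, and C3ar1 was not well above background on any array.

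C1qb, the B chain, had signals of -0.24 and -0.72 on the transgenic arrays, against -2.19 and -2.40 on the wild-type arrays. Both transgenic samples were above both wild-type samples, and the gap between the groups was larger than the distance between replicates in either. The difference was 1.82 ± 0.22 SE (3.52-fold, 95% interval 2.38 to 5.21, n = 2 per group, limma adjusted p = 0.0364). The call was lost without transgenic replicate 1 (1.57, adjusted p = 0.121) and without transgenic replicate 2 (2.06, adjusted p = 0.0547), and over the alternatives with every array the adjusted p ran from 0.00875 to 0.0988.

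C1qc, the C chain, had signals of -0.82 and -0.80 on the transgenic arrays, against -3.82 and -3.98 on the wild-type arrays. The transgenic samples lay almost on top of each other, far above the wild-type samples. The measured difference was 3.10 ± 0.20 SE (adjusted p = 0.0157). On wild-type array 1 only 2 of its 10 spots were well above background, so the change is given as a bound, at least 7.90-fold higher in the transgenic samples: the transgenic mean is set against the wild-type mean of, per array, whichever is higher, the C1qc signal or the dimmest signal that counts as well above background. Here and throughout, such a bound allows for background only and not for the spread between samples. C1qc passed the filter on dim probes through the transgenic arrays alone, which made a positive difference likely. The call was lost without transgenic replicate 1 (3.11, adjusted p = 0.0507) and without transgenic replicate 2 (3.09, adjusted p = 0.0515), and over the alternatives with every array the adjusted p ran from 0.00141 to 0.0504.

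The 10 spots of the C1qc probe show the spread of the measurement within an array. On transgenic array 1 the 9 usable spots ran from -0.90 to -0.66 and on transgenic array 2 the 9 usable spots ran from -0.91 to -0.72. The 10 spots ran from -4.49 to -3.28 on wild-type array 1 and from -4.46 to -3.29 on wild-type array 2. No transgenic spot reached down to the range of the wild-type spots, and the spots scattered more on the wild-type arrays, where the SD was 0.40 and 0.36, than on the transgenic arrays, where it was 0.07 and 0.08. Spots of 1 array are repeated measurements of 1 sample and not replicates of a group.

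**Figure D2:**
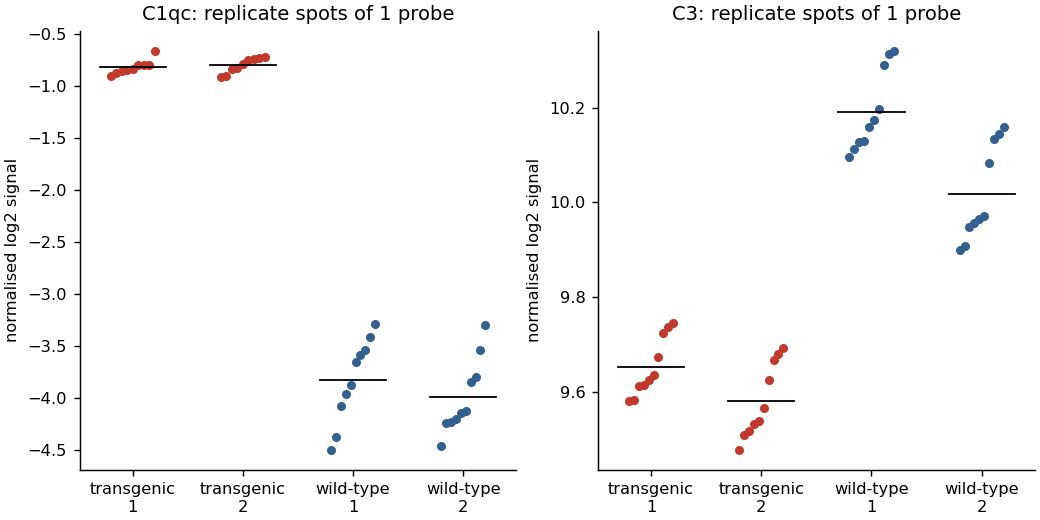
Normalised log2 signal (y axis) of every usable replicate spot of the C1qc probe (left) and the 10-spot C3 probe (right) on each array, with transgenic arrays in red and wild-type arrays in blue and black lines at the array means. For both probes the spots of transgenic and wild-type arrays do not overlap, with transgenic C1qc spots from -0.91 to -0.66 and transgenic C3 spots from 9.48 to 9.75.

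C1qa, the A chain, had signals of -0.27 and -0.22 on the transgenic arrays, against -1.13 and -3.39 on the wild-type arrays. The wild-type samples differed from each other by 2.26, more than the 0.86 that separates the higher of them from the transgenic samples, although the groups did not overlap. The difference was 2.02 ± 0.71 SE (4.05-fold, 95% interval 1.18 to 13.9, adjusted p = 0.221) and was not called. The probe has 1 spot per array, above background on all 4. Leaving out either wild-type array makes a call: without wild-type replicate 1 the difference was 3.15 (adjusted p = 0.0145) and without wild-type replicate 2 it was 0.89 (adjusted p = 0.0319), while with every array the adjusted p ran from 0.0984 to 0.330 over the alternatives.

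The size of all the C1q differences depends on the background correction. With normexp, which adds an offset of 50 and so compresses dim signals, C1qc was at 1.47, C1qb at 1.08 and C1qa at 1.32 after a 75th percentile shift, and 1.60, 1.18 and 1.34 after quantile normalization. C1qb and C1qc kept their calls in both.

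C3, the central component, had signals of 9.65 and 9.58 on the transgenic arrays, against 10.19 and 10.02 on the wild-type arrays. Both transgenic samples were below both wild-type samples. The difference was -0.49 ± 0.14 SE (0.713 of the wild-type level, 95% interval 0.562 to 0.906, unadjusted p = 0.0145 and adjusted p = 0.158 by limma). On the 10-spot probe the spots ran from 9.58 to 9.75 and from 9.48 to 9.69 on the transgenic arrays, against 10.10 to 10.32 and 9.90 to 10.16 on the wild-type arrays.

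The C3 probe whose sequence is shown gave 9.12 and 9.04 on the transgenic arrays, against 9.76 and 9.68 on the wild-type arrays, a difference of -0.64 ± 0.12 SE in a fit of all probes (adjusted p = 0.0759). Both probes thus put the transgenic samples lower, and neither was called. C3 was called in 2 alternatives, with a median shift in place of the 75th percentile (-0.52, adjusted p = 0.0330) and without wild-type replicate 2 (-0.57, adjusted p = 0.0261). With quantile normalization its difference shrank to -0.16, and over the alternatives with every array the adjusted p ran from 0.0330 to 0.300.

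C4b, which is cleaved by the classical pathway proteases, had signals of 7.61 and 7.82 on the transgenic arrays, against 8.03 and 8.24 on the wild-type arrays. The groups did not overlap, but the gap of 0.21 between them was about the distance between replicates, 0.21 in either group. The difference was -0.42 ± 0.13 SE (0.748 of the wild-type level, adjusted p = 0.193) and was not called. C4b has a near-identical copy, C4a, for which no probe was named, so the signal may hold both.

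Cfb, the protease of the alternative pathway, had signals of 5.81 and 5.96 on the transgenic arrays, against 6.10 and 6.21 on the wild-type arrays. Transgenic samples were again lower without overlap, and the gap of 0.14 between the groups was about the distance between the transgenic replicates. The difference was -0.27 ± 0.10 SE (0.831 of the wild-type level, 95% interval 0.697 to 0.991, adjusted p = 0.245). Cfb was called in none of the alternatives.

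C2, the classical pathway protease whose gene neighbours Cfb, had signals of 7.09 and 6.88 on the transgenic arrays, against 6.76 and 7.13 on the wild-type arrays. Here the groups overlapped, and the wild-type samples were the lowest and the highest of the 4. The difference was 0.04 ± 0.16 SE (1.03-fold, adjusted p = 0.915), and the 95% interval of the fold ran from 0.781 to 1.35. A change of the size measured for C3 is thus outside this interval, a change of the size measured for Cfb inside it.

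Serping1, which inhibits the C1 proteases, had signals of 9.12 and 9.01 on the transgenic arrays, against 9.46 and 9.35 on the wild-type arrays. Both transgenic samples were lower, and the other Serping1 probe, whose sequence is shown, also had both transgenic samples lower, with 8.21 and 8.12 on the transgenic arrays, against 8.40 and 8.55 on the wild-type arrays. The differences were -0.34 ± 0.12 SE for the brighter probe (0.792 of the wild-type level, adjusted p = 0.237) and -0.31 ± 0.12 SE for the other in the fit of all probes (adjusted p = 0.235). With quantile normalization the brighter probe's difference was -0.03, so the size of this difference depends on the scaling.

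C3ar1, the receptor for C3a on myeloid cells, gave signals of -4.82 and -6.59 on the transgenic arrays, against -5.74 and -7.08 on the wild-type arrays. None of these was well above background and the groups overlapped, so it was not tested and has no fold.

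The 4 genes lower on the transgenic arrays, C3, C4b, Cfb and Serping1, were also lower there under every scaling tried, at -0.52 to -0.16 for C3, -0.46 to -0.21 for C4b, -0.30 to -0.17 for Cfb and -0.37 to -0.03 for Serping1. Beside them, the summed linear signal of 11 progenitor and fibroblast markers, relative to the 75th percentile, was 3113 and 3064 on the transgenic arrays, against 4591 and 3745 on the wild-type arrays. Bright genes weigh most in this sum, among them Pi16, with group means of 8.95 in the transgenic and 10.11 in the wild-type samples. Pdgfra (0.07), Pdgfrb (0.40) and Lum (0.36) were higher in the transgenic samples and the other markers lower. The median difference of the markers was -0.28, and 1 of them was called lower, Pi16 (-1.16 ± 0.15 SE, adjusted p = 0.0389), a marker of an early progenitor stage. Pi16 was not called without transgenic replicate 1 (adjusted p = 0.201) or replicate 2 (adjusted p = 0.263), the median was -0.03 with quantile normalization, and 7 of the markers were called lower without wild-type replicate 2. The part of such shifts in the C3, C4b, Cfb and Serping1 values was not tested. In a bulk sample, fewer cells of a type and less RNA per cell cannot be told apart.

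**Figure D3:**
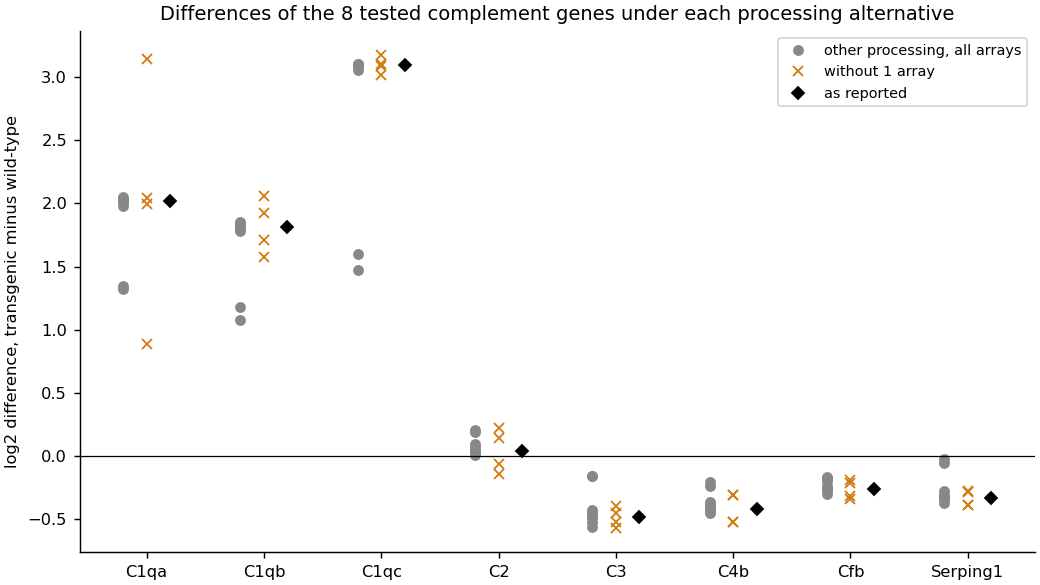
Log2 difference, transgenic minus wild-type (y axis), of each of the 8 tested genes (x axis) as reported (black diamonds), under other processing with all 4 arrays (grey circles) and without 1 array (orange crosses). The C1q chains stay above 0 and C3, C4b, Cfb and Serping1 below 0 in all of them, while C2 lies on both sides. C1qa without 1 array runs from 0.89 to 3.15.

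C1q was also set against C3 within each array. The mean log2 signal of the C1q chains minus that of C3 was -10.09 and -10.16 on the transgenic arrays, against -12.57 and -13.28 on the wild-type arrays. The level of this number depends on the probes and is not read, and its measured difference between groups was 2.80. With C1qc, not well above background on wild-type array 1, at its bound, C1q minus C3 was 2.76 higher (at least 6.77-fold), and with normexp background correction it was 1.72 higher. The transgenic arrays differed from each other by far less than the wild-type arrays did, and the groups did not overlap. Of the C1q chains, C1qa differed most between the wild-type arrays, by 2.26, against 0.21 for C1qb and 0.16 for C1qc. An exact 2-sided permutation test over the 4 arrays gave p = 0.333, which is the smallest p that 2 against 2 arrays allow.

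The same measure against C4b was close to this. Minus C4b, C1q was at -8.05 and -8.40 on the transgenic arrays, against -10.41 and -11.50 on the wild-type arrays, a difference of 2.73. This had the same smallest possible p of 0.333. The measure minus C3 fell to 1.72 with normexp correction and to 1.53 with normexp and quantile normalization.

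Macrophage markers moved with C1q. Of 19 markers 15 were tested, 9 rose and 0 fell, against 0.983% called higher and 0.771% called lower over all features. Among the 8 markers above background on all 4 arrays 5 rose, with differences from 0.43 for Csf1r to 3.28 for Tyrobp, an adaptor of myeloid receptors. Of the 15, the other 7 passed the filter through the transgenic arrays alone, and the median difference was 2.12, 1.44 with genes below background at their bound, and 0.73 with normexp background correction. Without transgenic replicate 1 or replicate 2, 2 of the markers were called. The summed linear signal of the list was 19.9 and 20.8 on the transgenic arrays, against 11.7 and 9.51 on the wild-type arrays. Bright genes weigh most in this sum, above all Csf1r, with group means of 3.37 in the transgenic and 2.94 in the wild-type samples.

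Among them, Cd74, the invariant chain of antigen presentation, was 9.22-fold higher (3.20 ± 0.14 SE, adjusted p = 0.0125) and the chemokine Pf4 8.17-fold (3.03 ± 0.20 SE, adjusted p = 0.0157), both above background on all 4 arrays. The mannose receptor Mrc1 was at least 6.65-fold higher (adjusted p = 0.0179), and not called without transgenic replicate 1 (adjusted p = 0.0655) or replicate 2 (adjusted p = 0.0529). Of the defining markers, Adgre1, which encodes F4/80, was above background on neither wild-type array and on both transgenic arrays, and was at least 1.38-fold higher in the transgenic samples (adjusted p = 0.150, not called). Cd68 was above background on 1 of 2 wild-type arrays, and its groups overlapped. Its signals were -3.35 and -3.67 on the transgenic arrays, against -3.83 and -3.50 on the wild-type arrays (0.16 ± 0.29 SE, limma adjusted p = 0.805, not called). Csf1r, the macrophage growth factor receptor, was above background on all arrays at 3.30 and 3.45 on the transgenic arrays, against 3.12 and 2.76 on the wild-type arrays (0.43 ± 0.14 SE, adjusted p = 0.200). Fcgr1, Cd163, Cx3cr1 and Trem2 were too dim to test. The part of macrophage RNA in the C1q values was not tested.

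**Figure D4:**
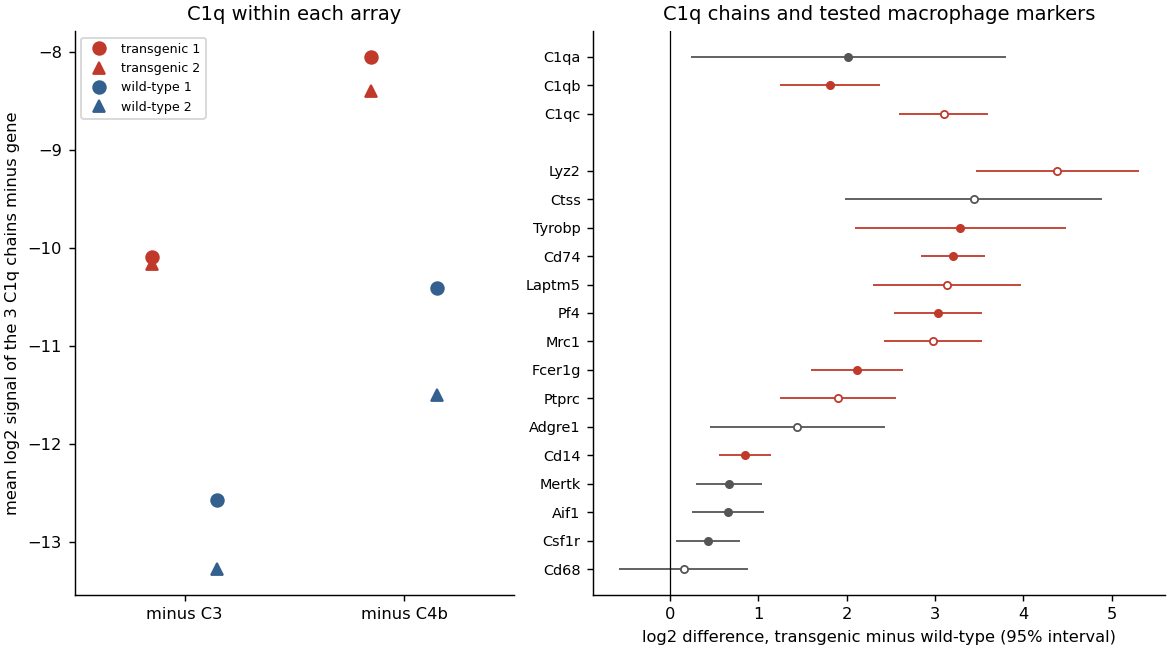
Left: mean log2 signal of the C1q chains minus the log2 signal of C3 or C4b on each array (y axis), transgenic in red and wild-type in blue, the transgenic arrays higher by 2.80 and 2.73. Right: log2 difference, transgenic minus wild-type, with its 95% interval (x axis) for the C1q chains and the 15 tested macrophage markers (y axis), red for an adjusted p under 0.05 and open where the gene was not above background on both wild-type arrays. Open symbols show measured differences of dim genes and not bounds, and the 8 filled markers lie from 0.43 for Csf1r to 3.28 for Tyrobp.

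Markers of other cell types also differed, and are set against 0.983% called higher and 0.771% called lower over all features. Of 7 tested smooth muscle and pericyte markers 3 rose and 1 fell, and of 5 tested mature adipocyte markers 2 rose. Of 5 neutrophil markers 2 rose and of 4 T cell markers 1 rose, while of 8 endothelial markers 0 were called. Of 2 tested B cell, 2 dendritic cell, 2 mast cell and 3 Schwann markers 0 were called as well. The smooth muscle and pericyte genes named here have the smallest p of their list, and the marker that fell is not among them. The smooth muscle and pericyte genes Acta2 (2.61 ± 0.14 SE, limma adjusted p = 0.0125) and Notch3 (1.82 ± 0.13 SE, adjusted p = 0.0170) rose and were above background on all 4 arrays. So were the mature adipocyte genes that rose, Fabp4 (2.23 ± 0.11 SE, adjusted p = 0.0125) and Slc2a4 (1.90 ± 0.16 SE, adjusted p = 0.0227). The neutrophil genes S100a8 (at least 4.83-fold) and S100a9 (at least 19.5-fold), the T cell gene Cd3d (at least 3.33-fold) and the pericyte gene Rgs5 (at least 4.90-fold) passed the filter through the transgenic arrays alone. The other tested neutrophil markers were not called. Of these, Elane (-0.04, limma adjusted p = 0.866) and Csf3r (0.24, adjusted p = 0.299) were above background on all 4 arrays. Mpo (1.21, adjusted p = 0.193) passed the filter through the transgenic arrays alone. Cd3e, another T cell receptor chain that was above background on all 4 arrays, was at -1.01 (adjusted p = 0.160). The part of these cell types in the C1q values was not tested. Of the transcription factors known for myeloid genes, Runx1 rose (0.97 ± 0.13 SE, adjusted p = 0.0442), with the call lost without transgenic replicate 1 (adjusted p = 0.185), transgenic replicate 2 (adjusted p = 0.0929) or wild-type replicate 1 (adjusted p = 0.0504). With every array Runx1 was called under 6 of 11 alternatives, and not with quantile normalization (adjusted p = 0.0539) or the mean of its probes (adjusted p = 0.0915). Irf8 was at 0.85 (adjusted p = 0.154) and was not called. Spi1, which encodes PU.1, was not well above background on any array.

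The rest of the complement system was followed in a list of 49 genes, of which 47 had a probe and 31 were tested. Of the 31, 2 rose and 1 fell, and their median difference was -0.01, which turned to 0.07 with quantile normalization. The 2 that rose were Cd93 and Fcna, and the 1 that fell was Cfi. Over all features 0.983% were called higher and 0.771% lower. Of the 31 genes 4 passed the filter through the transgenic arrays alone. Leaving out wild-type replicate 1 gave 4 higher and 2 lower, wild-type replicate 2 gave 4 higher and 6 lower, transgenic replicate 1 gave 1 higher and 1 lower, and transgenic replicate 2 gave 1 higher and 0 lower.

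Cd93, a membrane receptor once taken for a C1q receptor and made by endothelial and myeloid cells, had signals of 0.09 and 0.10 on the transgenic arrays, against -2.51 and -2.47 on the wild-type arrays. Replicates were nearly equal in both groups. The difference was 2.59 ± 0.15 SE (6.0-fold, adjusted p = 0.0154), and the call was kept whichever array was left out. Beside it, the summed linear signal of the 8 endothelial markers was 16.3 and 15.8 on the transgenic arrays, against 22.3 and 17.6 on the wild-type arrays, and 0 of the 8 were called. Of these markers 6 were higher in the transgenic samples and Kdr (-0.28, adjusted p = 0.587) and Tek (-0.52, adjusted p = 0.0748) lower, with a median of 0.91, or 0.52 with genes below background at their bound. Of the 8, 4 passed the filter through the transgenic arrays alone.

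Fcna, which encodes ficolin A, a lectin pathway recognition protein made by macrophages, had signals of -2.31 and -2.04 on the transgenic arrays, against -3.78 and -4.02 on the wild-type arrays, where it was above background on 1 of 2. It was at least 3.10-fold higher (1.72 ± 0.25 SE, adjusted p = 0.0483), and its call was lost with normexp (0.47, adjusted p = 0.275), quantile normalization (adjusted p = 0.0586) and a median shift (adjusted p = 0.0527), and without transgenic replicate 1 (1.86, adjusted p = 0.190) or replicate 2 (1.58, adjusted p = 0.274).

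Cfi, the protease that cleaves C3b and C4b, had signals of -0.63 and -0.47 on the transgenic arrays, against 0.45 and 0.76 on the wild-type arrays. It fell by 1.16 ± 0.16 SE on the log2 scale (0.449 of the wild-type level, adjusted p = 0.0435). Cfi was not called without transgenic replicate 1 (-1.08, adjusted p = 0.130) or replicate 2 (-1.24, adjusted p = 0.0910), with quantile normalization (adjusted p = 0.0593) or with a median shift (adjusted p = 0.0683).

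In the classical pathway, 0 of 5 tested genes were called. The proteases that ride on C1q had differences of -0.08 for C1ra and 0.07 for C1s2 (adjusted p = 0.701 and 0.748), and the group's summed linear signal was 450 and 439 on the transgenic arrays, against 442 and 443 on the wild-type arrays. C1ra changed sign with quantile normalization, at 0.10.

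In the lectin pathway 4 of 9 genes were tested and 1 was called, Fcna. The collectin Colec12 had signals of 1.78 and 1.65 on the transgenic arrays, against 1.21 and 1.20 on the wild-type arrays (0.51 ± 0.10 SE, adjusted p = 0.0814). Colec10 went the other way, at -0.75 and -1.16 on the transgenic arrays, against 0.54 and 0.14 on the wild-type arrays. Its difference was -1.29 ± 0.22 SE (limma adjusted p = 0.0612, not called), and that of Colec11 was 0.70 ± 0.35 SE (adjusted p = 0.350). The serine proteases Masp1 and Masp2 and the mannose-binding lectins Mbl1 and Mbl2 were too dim to test.

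In the alternative pathway, Cfd, which encodes adipsin and is a product of fat cells, had signals of -0.99 and -1.24 on the transgenic arrays, against -2.74 and -3.97 on the wild-type arrays. The groups did not overlap, and the difference of 2.24 ± 0.43 SE was not called (adjusted p = 0.0784), but it was called without wild-type replicate 1 (2.86, adjusted p = 0.0160) and without wild-type replicate 2 (1.63, adjusted p = 0.0208). With every array it was called under 3 of 11 alternatives, with adjusted p from 0.0236 to 0.165. Beside it, the summed linear signal of the 7 mature adipocyte markers was 491 and 504 on the transgenic arrays, against 290 and 284 on the wild-type arrays. Cfp, properdin, was at 0.29 ± 0.17 SE (adjusted p = 0.413).

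Of the terminal components, which form the membrane pore, 4 of 7 were tested and 0 were called. C7 had signals of 0.69 and 0.06 on the transgenic arrays, against 1.76 and 1.98 on the wild-type arrays (-1.49 ± 0.22 SE, adjusted p = 0.0501). Hc, which encodes C5 and was chosen for mention after its values were seen, had signals of -1.02 and -1.50 on the transgenic arrays, against -4.06 and -3.20 on the wild-type arrays, and was at least 4.38-fold higher in the transgenic samples (adjusted p = 0.0511, not called). It was above background on 1 of 2 wild-type arrays and passed the filter through the transgenic arrays alone. FVB mice are known to carry an allele of Hc that yields no C5 in plasma, so this probe reports the transcript and not the protein. Both genes lie at the threshold and did not pass it. C7 was called under 6 of 11 alternatives with every array, with adjusted p from 0.0122 to 0.137, and without transgenic replicate 1 (-1.80, adjusted p = 0.0332).

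Membrane regulators, which protect host cells, had 5 of 6 genes tested and 0 called. Cd55, decay-accelerating factor, had signals of 5.33 and 5.20 on the transgenic arrays, against 5.79 and 5.61 on the wild-type arrays (-0.43 ± 0.11 SE, adjusted p = 0.129). Of the receptors, 6 of 9 were tested and 1 was called, Cd93. Itgam, a chain of complement receptor 3, was at -0.07 ± 0.09 SE (adjusted p = 0.696). Itgb2, the other chain of this receptor, was at 0.96 ± 0.27 SE (limma adjusted p = 0.155) and was not called.

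**Figure D5:**
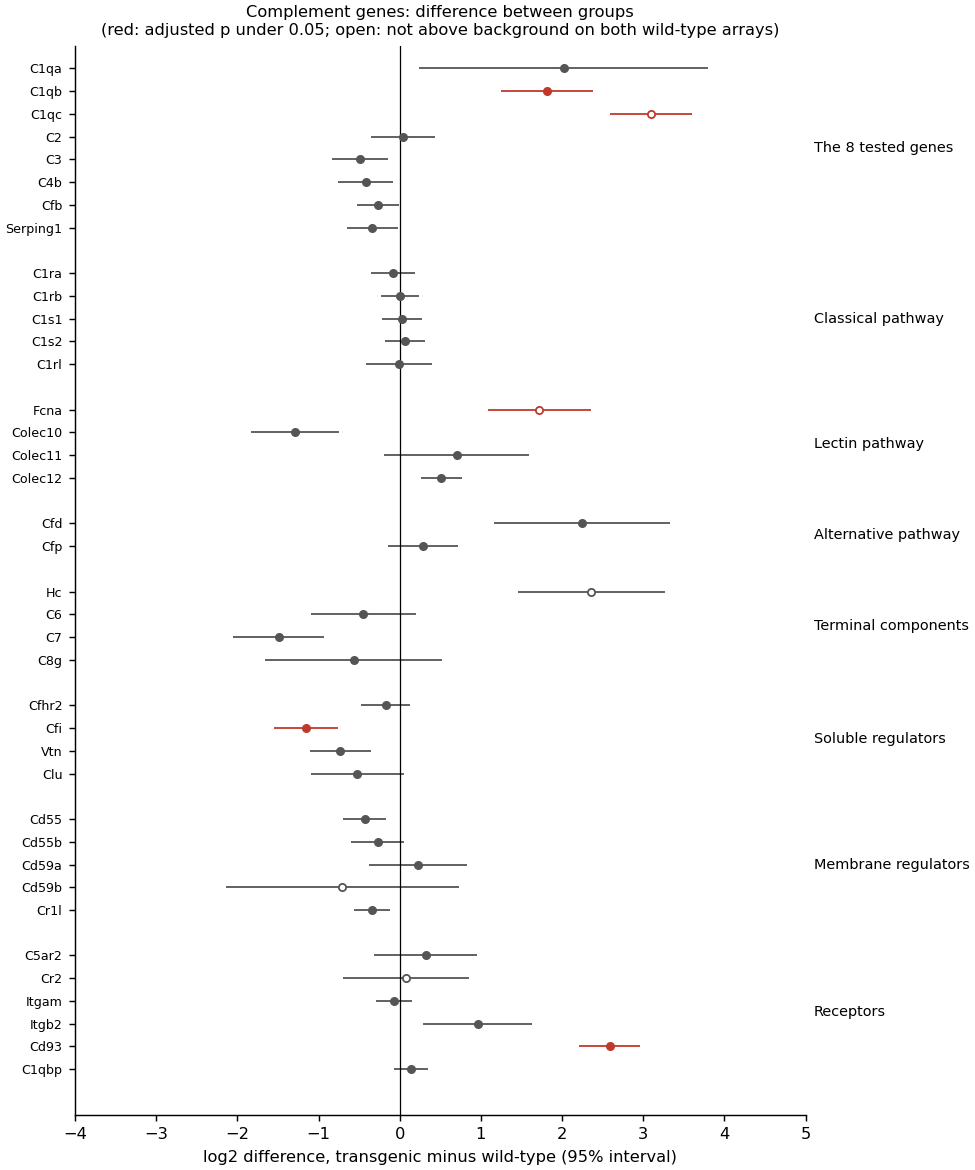
Log2 difference, transgenic minus wild-type, with its 95% interval (x axis) for the 8 tested complement genes and other complement genes by role (y axis). Red marks an adjusted p under 0.05 and open symbols mark genes not above background on both wild-type arrays. C1qb, C1qc, Fcna and Cd93 lie to the right in red and Cfi to the left, at -1.16.

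Inducers of complement were looked at through their known target genes, beside 1.75% of all features called in either direction. C3, Cfb, C4b and Serping1 are textbook targets of interferon and of inflammatory cytokines. Of 17 tested interferon-inducible genes 1 rose, Nlrc5 (at least 4.60-fold, adjusted p = 0.0471), an activator of class I antigen presentation, and the median was 0.18. Nlrc5 was above background on 1 of 2 wild-type arrays, passed the filter through the transgenic arrays alone, and its call was lost without transgenic replicate 1 (adjusted p = 0.121), transgenic replicate 2 (adjusted p = 0.111) and with quantile normalization (adjusted p = 0.0695). Of 12 stromal acute-phase genes 0 were called, with a median of -0.22. Without overlap between the groups, 4 of them were higher and 7 lower, against 24.3% and 28.9% of all features. Vcam1, an adhesion molecule, came nearest to a call at 0.60 ± 0.09 SE (limma adjusted p = 0.0532). The next was Tnfaip3, lower at -0.48 ± 0.08 SE (adjusted p = 0.0652). Vcam1 was called under 7 of 11 alternatives with every array, with adjusted p from 0.0240 to 0.163, and under 2 of 4 that left out an array. Irf1, an interferon-induced transcription factor, was at -0.63 ± 0.14 SE (limma adjusted p = 0.104). It was the only one of the 17 interferon-inducible genes that was lower without overlap, while 8 were higher without overlap. Among those 8 was Isg15, at 0.49 ± 0.16 SE (adjusted p = 0.194).

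The RefSeq promoter table for GRCm38.p6 held 4 of the 9 genes, C1qb, C1qc, C3 and C3ar1. The windows of C1qb, C1qc and C3 are shown because the C1q chains were higher on the transgenic arrays and C3 was not. Each runs from 250 bases before to 50 after the start, printed on the gene's strand, the minus strand, with capitals at a match to the ETS core GAGGAA on either strand or to the C/EBP motif TTGCNNAA on either strand. The windows are chr4:136886151-136886450 for C1qb, chr4:136892865-136893164 for C1qc and chr17:57228087-57228386 for C3.
C1qb: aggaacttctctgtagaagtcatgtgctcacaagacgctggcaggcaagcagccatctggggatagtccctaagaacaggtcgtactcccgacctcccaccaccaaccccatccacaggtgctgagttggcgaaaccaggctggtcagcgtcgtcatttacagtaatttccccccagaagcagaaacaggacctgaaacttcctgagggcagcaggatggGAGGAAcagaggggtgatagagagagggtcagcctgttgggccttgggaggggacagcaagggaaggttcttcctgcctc
C1qc: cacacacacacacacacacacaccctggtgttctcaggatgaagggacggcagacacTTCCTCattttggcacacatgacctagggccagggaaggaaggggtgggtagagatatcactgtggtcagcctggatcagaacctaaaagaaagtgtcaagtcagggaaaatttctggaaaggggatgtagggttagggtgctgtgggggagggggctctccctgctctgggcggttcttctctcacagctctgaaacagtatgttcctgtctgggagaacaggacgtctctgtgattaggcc
C3: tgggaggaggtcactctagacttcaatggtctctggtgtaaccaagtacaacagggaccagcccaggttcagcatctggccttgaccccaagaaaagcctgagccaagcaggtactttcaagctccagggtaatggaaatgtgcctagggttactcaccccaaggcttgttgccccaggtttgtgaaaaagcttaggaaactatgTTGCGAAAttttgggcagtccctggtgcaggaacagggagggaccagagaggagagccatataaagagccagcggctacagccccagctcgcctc
The letters GAGGAA, a form of the ETS motif that PU.1 can bind, stood at -30 relative to the start in C1qb. On the other strand, as TTCCTC, they stood at -193 in C1qc, and they were not in the C3 or C3ar1 windows. They are found in 28.3% of 32851 promoter windows of this length. Shorter or other forms of the ETS motif were not searched, so the C3 and C3ar1 windows may hold them. The C/EBP motif stood at -45 in C3 and in none of the other 3 windows, against 10.8% of all windows. The interferon-stimulated response element, in 3.44% of windows, and the GAS element TTCNNNGAA, in 8.30%, had no match in any of the 4. No motif overlapped another. These matches describe letters and show no binding.

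Genes near the complement genes were also followed, where over all features 1.75% were called in either direction. Within 250 kb of the C1q probes 3 genes were tested and 0 called, and within 250 kb of the C2, Cfb and C4b probes 30 were tested and 0 called, with a median of 0.05. Around C3 1 of 12 was called, Vav1, a signalling protein of blood cells, at -1.74 and -2.25 on the transgenic arrays, against -5.28 and -4.36 on the wild-type arrays. It was at least 3.95-fold higher (2.83 ± 0.40 SE, adjusted p = 0.0463), and with the mean of its probes it was not called (0.93, adjusted p = 0.565), nor without transgenic replicate 1 (adjusted p = 0.178) or replicate 2 (adjusted p = 0.102). Around Serping1 0 of 13 and around C3ar1 0 of 7 were called.

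The features whose signals over the 4 arrays, centred on their mean, were nearest to the mean of the C1q chains were Myo1g (Euclidean distance 0.03 on the log2 scale), Gpr132 (0.13), Lat (0.13), Kif4 (0.17) and Fyb (0.18). All of these but Myo1g passed the filter through the transgenic arrays alone, so their distances rest in part on signals below background. Their bounds were 4.94-fold for Gpr132, 2.29-fold for Lat, 2.51-fold for Kif4 and 1.54-fold for Fyb. Myo1g, a myosin of blood cells, had signals of -0.34 and -0.46 on the transgenic arrays, against -2.23 and -3.14 on the wild-type arrays. Myo1g shared with the C1q mean the lower signal on wild-type array 2. In the C1q mean this comes mostly from C1qa, measured by 1 spot per array (-1.13 and -3.39 on the wild-type arrays). C1qb (-2.19 and -2.40) and C1qc (-3.82 and -3.98) differed far less between the wild-type arrays. Nearest to C3 were Mettl26 (0.03), Car1 (0.03), Gas6 (0.04), Pm20d1 (0.04) and F5 (0.04). Gas6, a ligand of the receptors that clear dying cells, had signals of 6.31 and 6.24 on the transgenic arrays, against 6.81 and 6.68 on the wild-type arrays, close to C3's order over all 4 arrays. With 4 arrays, many features can resemble any pattern, and the distances are a description.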

How the data were processed

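Per the file headers, the arrays were of Agilent design 028005, read out with Feature Extraction 10.7.3.1 and annotated on mm9. The processed intensity that the authors deposited is background-subtracted per the file headers, and the raw spot intensities served normexp alternatives. The authors also deposited a table of log2 values, and no header or label says how it was made. Its columns correlated at 0.9998 to 1 with the scanner values after a percentile shift and centring of each probe, had medians of -0.05 and 0.02 for the transgenic and 0.19 and -0.02 for the wild-type samples, and were an alternative.

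Control spots and outlier spots were left out, spots of a probe were averaged as log2, and each array's 75th percentile was subtracted. Names came from RefSeq accessions for 26582 probes and from the design for 29099. Each gene entered by its brightest probe and was tested if well above background (at least 0.5 of its spots) on every array of 1 group. Of the 24518 features, 4255 passed this filter through the transgenic arrays alone and 101 through the wild-type arrays alone. Transgenic and wild-type arrays were set against each other by limma 3.58.1 under R 4.3.3 (lmFit, eBayes with intensity trend, 2-sided, residual degrees of freedom 2, Benjamini-Hochberg over 24518 features, called at an adjusted p under 0.05), and the fit was tested on simulated data. The median SE was 0.18. The number of arrays limits the precision.

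The genes, lists and tests were chosen with earlier results of these data known. Genes were named by rule: the 9 genes, Adamts1, per complement role the called genes, the one with the smallest p and the brightest, called neighbours within 250 kb, the 5 nearest patterns, and the leading genes of each marker list. Others named were chosen after their values were seen, and some genes the rule took are not reported here. The 4 arrays share 1 slide and 1 scan, so no batch block was possible. No label pairs the samples by replicate number. Differences between replicates 1 and 2 correlated at 0.0032 between the groups, which shows no shared replicate effect but cannot tell whether samples were paired.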

Additional observations from a re-analysis of the deposited data

How the results depend on the processing

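With every array, the count of called features was 704 with no filter on dim probes, which moved the median of all features to -0.20, and 0 without an intensity trend, where 4119 had an unadjusted p under 0.05. A replicate block, which the labels do not justify as pairing, gave 796 called features, and 2 complement genes as before. Complement genes called numbered 1 with a filter on all 4 arrays, where C1qc was not tested, and 0 without the trend. C1q minus C3 was 1.72 with normexp and 1.53 with normexp and quantile normalization. The cause was not tested. Leaving out 1 array gave 80 to 4025 called features, 0 to 4 called complement genes and a C1q minus C3 of 2.44 to 3.15. Differences reversed in a few uncalled genes. Without 1 array, C2 ran from -0.144 to 0.223, C1ra from -0.172 to 0.0024, Cd79a from -0.0280 to 0.741 and Sox10 from -0.282 to 0.0622. With normexp and quantile normalization C1ra was at 0.0703 and Itgam at 0.0017, with quantile normalization at 0.0969 and 0.0018. With the mean of probes Itgam was at 0.0549, Cd79a at -0.467 and Tpsb2 at 0.161. Macrophage markers called numbered 2 without either transgenic array and 10 or 11 without a wild-type array. Of 22 named called genes tested in each, 16 to 22 were called under the scalings, and 6 to 22 without 1 array. The slide and scan block was not run, since there is 1 of each. Signal over background limits C3ar1 and C1qc.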
